A study of Homo sapiens with 18 samples.

Results

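Intron usage was compared between MYCN-/SNRPD3- and MYCN-/SNRPD3+ (wildtype) cells, that is, SNRPD3 knockdown while MYCN was repressed. The comparison took 9 of the 18 libraries of the series. In these, SHEP.tet21n cells, a neuroblastoma line in which doxycycline (Dox) switches MYCN off, had received 2 µg/mL Dox. Of the 9 libraries, 3 came from cells transfected with a control siRNA (siControl), 3 from cells with siSNRPD3 #1 and 3 from cells with siSNRPD3 #2, and both siRNAs were pooled to give 6 knockdown libraries. The other 9 libraries hold the same siRNAs in cells given DMSO in place of Dox, which keep expressing MYCN, and their values are set beside those of the Dox cells and enter a fit of all 18 libraries and its interaction term. The cells are 1 engineered line, and the labels do not say whether replicates were separate cultures, so every p-value measures only the spread between these libraries. The deposited value is the PSI, the percentage of the spliced reads of a cluster that remove a given intron, where a cluster is a set of introns that share splice sites. PSI compares the introns of a gene with each other and gives no expression level. The levels of SNRPD3 and MYCN were therefore not analysed here, and the depth of the libraries is unknown. Of 233650 introns in 51819 clusters, 149546 introns of 14408 genes had a mean PSI from 1% to 99% over the 9 libraries and were tested.

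The product of SNRPD3 is the Sm protein D3, a subunit of the ring of Sm proteins that is built around most small nuclear RNAs of the major and minor spliceosomes. Arginines in the tail of D3 are methylated by PRMT5 before the ring is loaded by the SMN complex, and without the ring such a small nuclear RNA does not mature into a working snRNP. The U1 snRNP pairs with the 5′ splice site and the U2 snRNP with the branch point upstream of the 3′ splice site. In human genes most exons are short and most introns long, so that the sites on both sides of an exon are recognised together, and an exon that is not recognised is skipped. A skipped exon whose length is not a multiple of 3 shifts the reading frame, which often leads to nonsense-mediated decay of the transcript.

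The PSI table is expressed here mainly through the skipping of single annotated exons. Each cassette set joins the intron that skips an exon with the pair of introns that flank it, and its skipping share sets the PSI of the skipping intron against the sum of that PSI and the average PSI of the pair, so that it runs from 0% where the exon is always kept to 100% where it is always left out. The table held 20401 such sets for 18375 exons of 7916 genes, and sets of 1 cluster can share introns. The sequences of 9 coding exons that are described further on are printed to show the splice sites that the values refer to. They run 5′ to 3′ on the transcribed strand of hg38. Capitals mark the exon, and lower case the last 15 bases of the upstream intron and the first 10 bases of the downstream intron. The first 4 exons belong to genes of cell division and genome integrity, the next 3 to signalling and chromatin genes, and the last 2 to RNA-binding proteins.
MDM4, exon 6 of 11, 68 nt, plus strand, chr1:204537415-204537507: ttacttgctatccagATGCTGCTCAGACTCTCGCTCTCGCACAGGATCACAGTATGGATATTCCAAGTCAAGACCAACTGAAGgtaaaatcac
CDK2, exon 5 of 7, 102 nt, plus strand, chr12:55969460-55969586: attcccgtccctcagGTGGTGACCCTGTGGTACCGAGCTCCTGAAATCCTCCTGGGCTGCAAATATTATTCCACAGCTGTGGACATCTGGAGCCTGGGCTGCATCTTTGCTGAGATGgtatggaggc
INCENP, exon 11 of 19, 12 nt, plus strand, chr11:62141485-62141521: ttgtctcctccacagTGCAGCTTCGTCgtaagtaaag
XRCC2, exon 2 of 3, 82 nt, minus strand, chr7:152660691-152660797: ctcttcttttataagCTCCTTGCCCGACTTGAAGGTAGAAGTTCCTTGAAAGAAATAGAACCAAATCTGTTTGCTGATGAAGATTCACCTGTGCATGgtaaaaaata
USP4, exon 21 of 22, 89 nt, minus strand, chr3:49278804-49278917: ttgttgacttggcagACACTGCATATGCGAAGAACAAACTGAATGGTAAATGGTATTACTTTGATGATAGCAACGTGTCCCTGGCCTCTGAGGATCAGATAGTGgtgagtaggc
NUMB, exon 11 of 13, 147 nt, minus strand, chr14:73282349-73282520: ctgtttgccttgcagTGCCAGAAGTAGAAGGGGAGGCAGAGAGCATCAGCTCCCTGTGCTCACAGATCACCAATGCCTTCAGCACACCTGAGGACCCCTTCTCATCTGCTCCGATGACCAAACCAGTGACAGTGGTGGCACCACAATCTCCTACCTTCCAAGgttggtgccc
KDM6A, exon 4 of 30, 50 nt, plus strand, chrX:44974651-44974725: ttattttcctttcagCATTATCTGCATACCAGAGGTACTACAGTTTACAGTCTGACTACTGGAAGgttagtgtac
HNRNPK, exon 8 of 17, 72 nt, minus strand, chr9:83973892-83973988: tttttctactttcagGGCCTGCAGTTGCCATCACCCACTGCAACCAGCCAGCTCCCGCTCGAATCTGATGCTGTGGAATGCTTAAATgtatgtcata
PCBP2, exon 12 of 15, 39 nt, plus strand, chr12:53467790-53467853: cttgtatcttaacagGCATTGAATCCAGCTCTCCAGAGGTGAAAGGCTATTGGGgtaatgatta
All 9 exons start after AG and are followed by gt. Each splice site was given a score, the sum of log2 odds over a position weight matrix made from annotated introns, so that a higher score is closer to the usual sequence. Among these exons the 5′ splice site score ran from 4.71 in INCENP and 4.82 in PCBP2 to 8.84 in USP4, against a median of 7.78 over all tested sets. The 3′ splice site score was highest in HNRNPK, at 15, where the bases printed before the AG are pyrimidines apart from 1 adenine.

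Exon skipping was higher after SNRPD3 knockdown with MYCN repressed. Averaged over all sets, the skipping share was 38.4%, 38.5% and 38.1% in the 3 wildtype libraries. It was 39.7%, 39.2% and 39.6% with siSNRPD3 #1, and 39.2%, 39.1% and 39.6% with siSNRPD3 #2. Every knockdown library lay above every wildtype library. The means were 38.3% ± 0.22 (SD, n = 3) and 39.4% ± 0.25 (SD, n = 6), a rise of 1.07 percentage points. An exact two-sided permutation test over the libraries gave p = 0.0119, which is the smallest value open to 6 against 3 libraries. With siSNRPD3 #1 the mean was 39.5% ± 0.26 (SD, n = 3), and with siSNRPD3 #2 39.3% ± 0.23 (SD, n = 3). The rise was 0.992 percentage points with 1 set taken from each of 12288 clusters, and 1.46 points over the 11053 sets whose share lay between 1% and 99% in every library, both with the same exact permutation p of 0.0119 and both chosen after seeing the data. The percentage of introns with a PSI under 0.1%, which shows how many introns lie at the lower edge, ran from 18.8% to 20.2% in the wildtype libraries and from 17.8% to 19.7% in the knockdown libraries, so the groups overlapped in that measure.

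**Figure D1:**
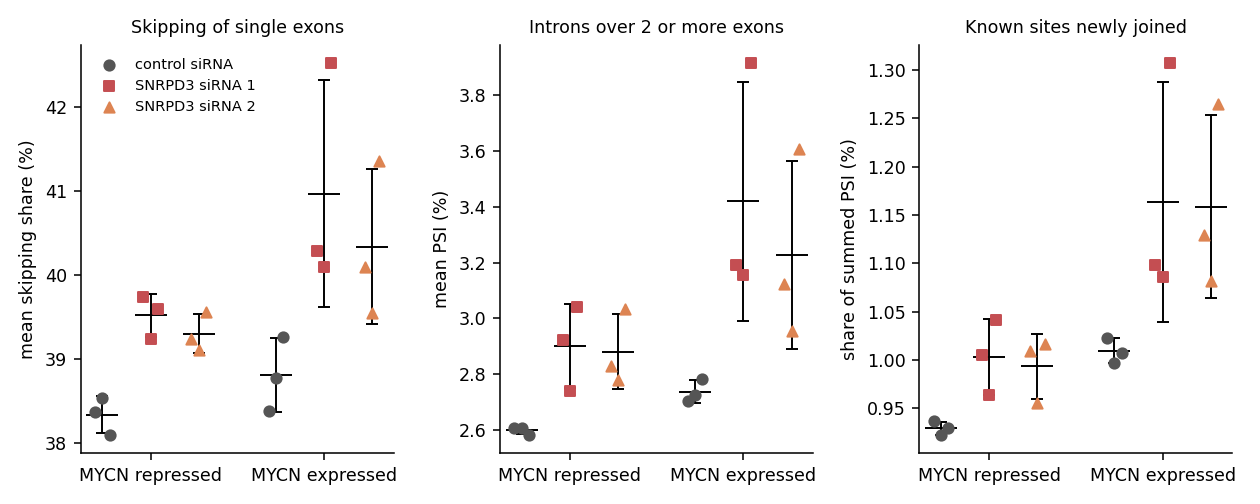
Mean skipping share of 20401 cassette sets (left, %), mean PSI of 7674 introns that skip 2 or more exons (middle, %) and share of the summed PSI in unannotated joins of annotated splice sites (right, %), 1 point per library, with bars for the mean and SD of the 3 libraries of a group; the vertical axes do not start at 0. With MYCN repressed, the 6 knockdown libraries sit above the 3 control libraries in all 3 panels, by 1.07, 0.291 and 0.069 percentage points.

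In the cells that express MYCN, measured in libraries of their own, the mean skipping share was 38.8% ± 0.44 (SD, n = 3) with siControl and 40.6% ± 1.09 (SD, n = 6) with the SNRPD3 siRNAs, a rise of 1.84 percentage points (exact permutation of the libraries, two-sided, p = 0.0476). Every knockdown library lay above every siControl library here too, the lowest at 39.5%. Whether the size of the rise differed between the MYCN states was not tested for this measure. The plot of library means shows that the spread among knockdown libraries was wider with MYCN expressed, where 1 library of each siRNA lay at the top, at 42.5% for siSNRPD3 #1 and 41.4% for siSNRPD3 #2. Both carry replicate number 3, and the siControl library of that number was also the highest of its group, at 39.3%. Whether the spread follows the replicate number was not tested.

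The rise was spread over many exons, and few of them stood out by themselves. Of 18092 sets with a mean share from 1% to 99%, 11556 (63.9%) had a higher fitted share after knockdown, with a median difference of 0.594 percentage points. In 650 sets of 543 genes, all 6 knockdown libraries lay above all 3 wildtype libraries, which is 3.59% of the sets tested, and in 114 sets of 105 genes all 6 lay below, which is 0.63%. The median difference was 3.79 percentage points in the former and -5.00 in the latter. At an unadjusted limma p under 0.05 there were 979 sets with a higher and 217 with a lower share. After Benjamini-Hochberg adjustment over all sets, limma called 4 sets, 0.0221% of those tested, and all 4 had less skipping after knockdown. The directions of the called sets varied with the setting. With an offset of 0.001, 4 sets were called higher and 4 lower, with siSNRPD3 #1 alone 10 and 13, and with siSNRPD3 #2 alone 16 and 6.

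The excess of sets without overlap on the higher side was present at every level of skipping. Among sets with a mean share under 5%, 164 of 4524 lay wholly higher and 29 wholly lower. Between 20% and 50% the counts were 109 and 18 of 2665, and over 80% they were 149 and 33 of 4574. The median difference was largest where there was most room for it, at 2.74 percentage points between 20% and 50% and 2.40 points between 50% and 80%, and about 0.3 points at both ends (0.307 under 5% and 0.301 over 80%).

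**Figure D2:**
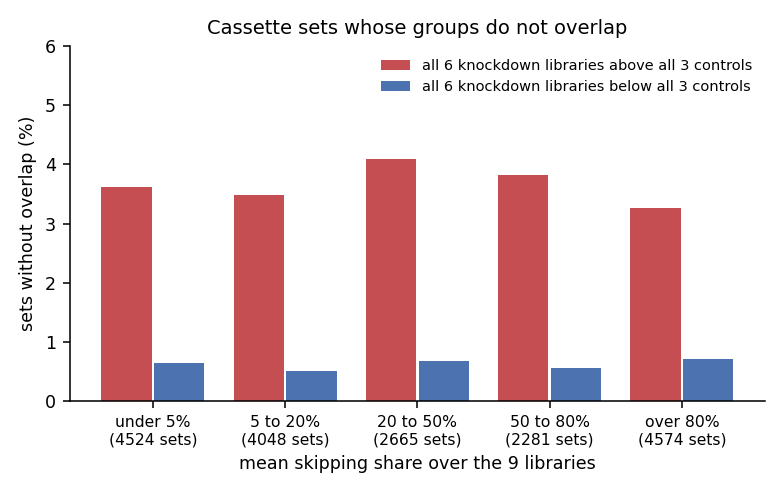
Percentage of cassette sets in which all 6 knockdown libraries lie above (red) or below (blue) all 3 control libraries, by mean skipping share over the 9 libraries. In each of the 5 ranges the red bar is higher, from 164 against 29 sets under 5% to 149 against 33 over 80%.

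The 650 sets with more skipping were described by features that had no part in choosing them. Their exons were a multiple of 3 in length in 48.5%, against 42.6% of all sets tested, and their median exon length was 106 nt against 113 nt. The median 5′ splice site score was 7.40 against 7.78, and the median 3′ splice site score 9.50 against 9.07. Their exon GC content was 47.6% against 48.8%, and the exon lay in the canonical transcript of its gene in 54.8% against 51.4%. These are small differences, given without a test, since sets of a cluster are not independent. In the cells that express MYCN, 558 of the 650 sets (85.8%) also had a higher mean share after knockdown, against 71.1% of all sets tested. Of the 114 sets with less skipping, 48 (42.1%) had a higher mean share there.

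Whether certain classes of exon carried the rise was asked for 17 classes, by exon length, reading frame, splice site scores, GC content and the length of the shorter flanking intron, and for 7 contrasts between opposite classes. After adjustment over these 24 tests, 15 of the classes rose. Exons of 31 to 300 nt rose by 1.10 percentage points (exact permutation, adjusted p = 0.019). Exons whose length is a multiple of 3 rose by 1.10 points and the others by 1.05 (exact permutation, adjusted p = 0.019 for each), and the difference between them, -0.0483 points, was within the spread between libraries (exact permutation, adjusted p = 0.795). The 456 sets of exons of 30 nt or less, the microexons, were 0.914 points higher and the 1049 sets of exons over 300 nt were 0.604 points higher, and neither passed the test (exact permutation, adjusted p = 0.118 and 0.150). In exons over 300 nt the libraries of siSNRPD3 #2 lay at 32.2%, 32.0% and 32.1%, among the wildtype libraries at 31.9%, 32.2% and 31.7%, while siSNRPD3 #1 gave 33.5%, 32.8% and 32.6%.

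Only the contrast of 5′ splice sites passed among the 7 contrasts. With the sets cut into 3 parts of like size by the score of the 5′ splice site, exons in the lowest part rose by 1.26 percentage points and those in the highest part by 0.919, and the difference of -0.343 points passed (exact permutation, adjusted p = 0.019). Exons with weaker 5′ splice sites were also skipped more in wildtype cells, in 43.1% against 33.6%. Relative to these levels, the rises were 2.93% and 2.73%, and the contrast taken as a log2 ratio of the 2 classes, chosen after seeing the data, moved by -0.00275 (exact permutation, p = 0.655). The contrast on the percentage scale was -0.204 without wildtype library 1 and then no longer passed (adjusted p = 0.161), and it was also lost without wildtype library 2 or 3, siSNRPD3 #1 library 1, or siSNRPD3 #2 library 1 or 3 (adjusted p from 0.0536 to 0.0571), where the smallest p is larger too. The contrast of 3′ splice site scores was 0.235 points (adjusted p = 0.422), that of GC content 0.0538 points (adjusted p = 0.905) and that of flanking intron length 0.333 points (adjusted p = 0.243), all by exact permutation and all within the spread between libraries.

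**Figure D3:**
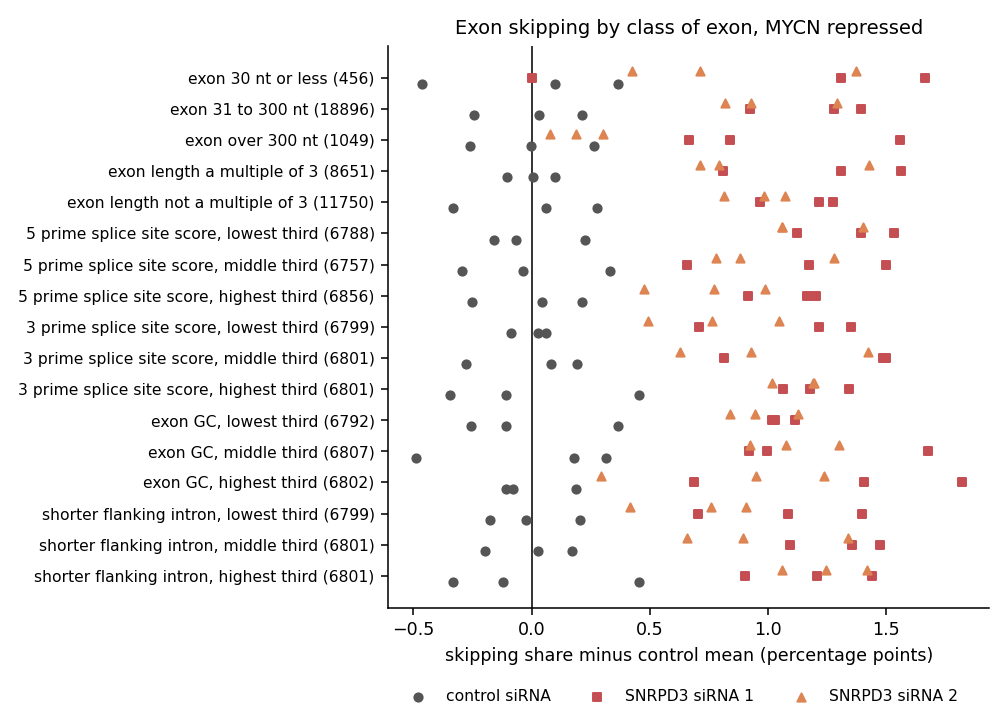
Mean skipping share of each of 17 classes of exon minus the mean of the 3 control libraries (percentage points), 1 point per library, with the number of cassette sets in parentheses. All 6 knockdown libraries lie to the right of the controls in 15 classes, and the groups overlap in exons of 30 nt or less and of over 300 nt.

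Skips of several exons and new joins of known splice sites lay in the same direction. Introns that skip 2 or more exons of the canonical transcript had a mean PSI of 2.61%, 2.61% and 2.58% in wildtype and from 2.74% to 3.04% after knockdown, with no overlap. The difference of 0.291 percentage points had an exact permutation p of 0.0238, and did not pass after adjustment over the 5 measures of its family (adjusted p = 0.119). Introns that join an annotated 5′ splice site to an annotated 3′ splice site in a way that the annotation does not list held 0.937%, 0.923% and 0.929% of the summed PSI in wildtype and from 0.955% to 1.04% after knockdown. This was a rise of 0.069 percentage points (exact permutation, adjusted p = 0.0476). Introns with both sites unannotated fell from 0.550% ± 0.011 (SD, n = 3) to 0.533% ± 0.0080 (SD, n = 6), and here the groups overlapped (exact permutation, adjusted p = 0.0476). Both calls were lost without any 1 of the 9 libraries other than siSNRPD3 #2 library 2, with adjusted p from 0.0714 to 0.214. Introns with only the 5′ or only the 3′ splice site unannotated differed by -0.0108 and -0.039 percentage points (exact permutation, adjusted p = 0.833 and 0.111).

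Other kinds of splice site choice did not pass the test. Where introns of a cluster shared 1 end and differed by 3 to 500 nt at the other, wildtype libraries used the shorter intron in 48.7% ± 0.144 (SD, n = 3) and knockdown libraries in 48.8% ± 0.209 (SD, n = 6) for alternative 5′ splice sites. It was 57.0% ± 0.068 (SD, n = 3) and 57.1% ± 0.11 (SD, n = 6) for alternative 3′ splice sites. The 368 introns with a minor spliceosome 5′ splice site had a mean PSI of 40.5% ± 0.14 (SD, n = 3) and 40.6% ± 0.11 (SD, n = 6). The Sm ring is part of the minor spliceosome as well, but PSI counts only reads that are spliced, and so intron retention was not measured. Adjusted exact permutation p-values were 0.774, 0.595 and 0.774.

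MDM4, the partner of MDM2 in restraining p53, showed the pattern at an exon whose skipping gives a frameshifted transcript known as the short form of MDM4. Its exon 6, printed first above, is 68 nt long, and its skipping share was 30.9%, 27.6% and 36.2% in wildtype. After knockdown it ran from 39.1% over a median of 45.1% to 52.2%. All 6 knockdown libraries lay above the wildtype, by 0.82 ± 0.23 on the log2 odds scale (SE), but the difference did not pass over all sets (limma, adjusted p = 0.645). In cells that express MYCN the share was 33.8% ± 3.21 (SD, n = 3) with siControl and 53.2% ± 8.19 (SD, n = 6) after knockdown. A second set, which pairs the same skipping intron with a 3′ splice site inside exon 6 that leaves 39 nt of it, gave 44% ± 4.13 (SD, n = 3) and 56.4% ± 5.08 (SD, n = 6). In MDM2 itself, the ubiquitin ligase for p53, exon 4 was skipped in 8.42%, 3.34% and 2.46% in wildtype and in 4.91% to 10.8% after knockdown, and the groups overlapped.

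Kinases and regulators of cell division held several such exons. In CDK2, the kinase of the entry into S phase, exon 5 was skipped in 14.5%, 13% and 13.7% of wildtype and in 14.7% to 23.6% (median 21.4%) after knockdown. This exon lies within the kinase domain, and its 102 nt keep the reading frame. In AURKA, a mitotic kinase that also stabilises MYCN protein, a 98 nt exon outside the canonical transcript was skipped in 27.3%, 35.4% and 31.4% of wildtype and in 38.3% to 43.7% after knockdown, and both other sets of this gene without overlap were higher too. In INCENP, the scaffold of the chromosomal passenger complex, the 12 nt exon 11 was skipped in 65.9%, 66.3% and 68.4%, and in 68.8% to 82.8% (median 75.4%) after knockdown. In the mitotic kinase CDK1, the transcription factor FOXM1 and the cyclin gene CCNL1, all 6 knockdown libraries lay above the wildtype too, at 1.25% ± 0.223, 3.78% ± 0.145 and 48.5% ± 3.32 (SD, n = 3) in wildtype and 1.97% ± 0.28, 5.33% ± 1.06 and 54.8% ± 2.49 (SD, n = 6) after knockdown. In CDK10, another cyclin-dependent kinase, a 227 nt exon outside the canonical transcript went the other way, with skipping shares of 83.9%, 80.4% and 81.6% in wildtype and 75.2% to 79.3% after knockdown. None of the sets given here by value passed over all sets (limma, adjusted p from 0.645 to 0.767).

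Among sets with no overlap and a share between 1% and 99% in every library, the 16 protein-coding genes with the smallest p were taken, a choice made after seeing the data, and their mean wildtype shares ran from 1.71% in KDM6A to 87.7% in SEPTIN6. In USP4, a deubiquitinase, the 89 nt exon 21 was skipped in 4.68%, 6.50% and 5.25% of wildtype and in 10.3% to 13.9% (median 11.6%) after knockdown. In XRCC2, a protein of homologous recombination, skipping of exon 2 joins the first exon to the last, and the share was 5.17%, 9.03% and 9.41% against 14.1% to 19.6%. In KDM6A, a histone H3 lysine 27 demethylase, the 50 nt exon 4 was skipped in 1.71%, 2.02% and 1.41% against 3.31% to 6.38%. None of the lowest knockdown values reached down to the highest wildtype value in these genes. In NUMB, an endocytic adaptor that restrains Notch, the share of exon 11 was 1.31%, 2.70% and 2.11% against 3.74% to 6.37%. This 147 nt exon codes for a stretch of the proline-rich region and is known to be chosen by tissue and developmental stage. In DLG4, the synaptic scaffold PSD-95, exon 2 was skipped in 1.75%, 1.67% and 1.86% against 3.67% to 7.24%.

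**Figure D4:**
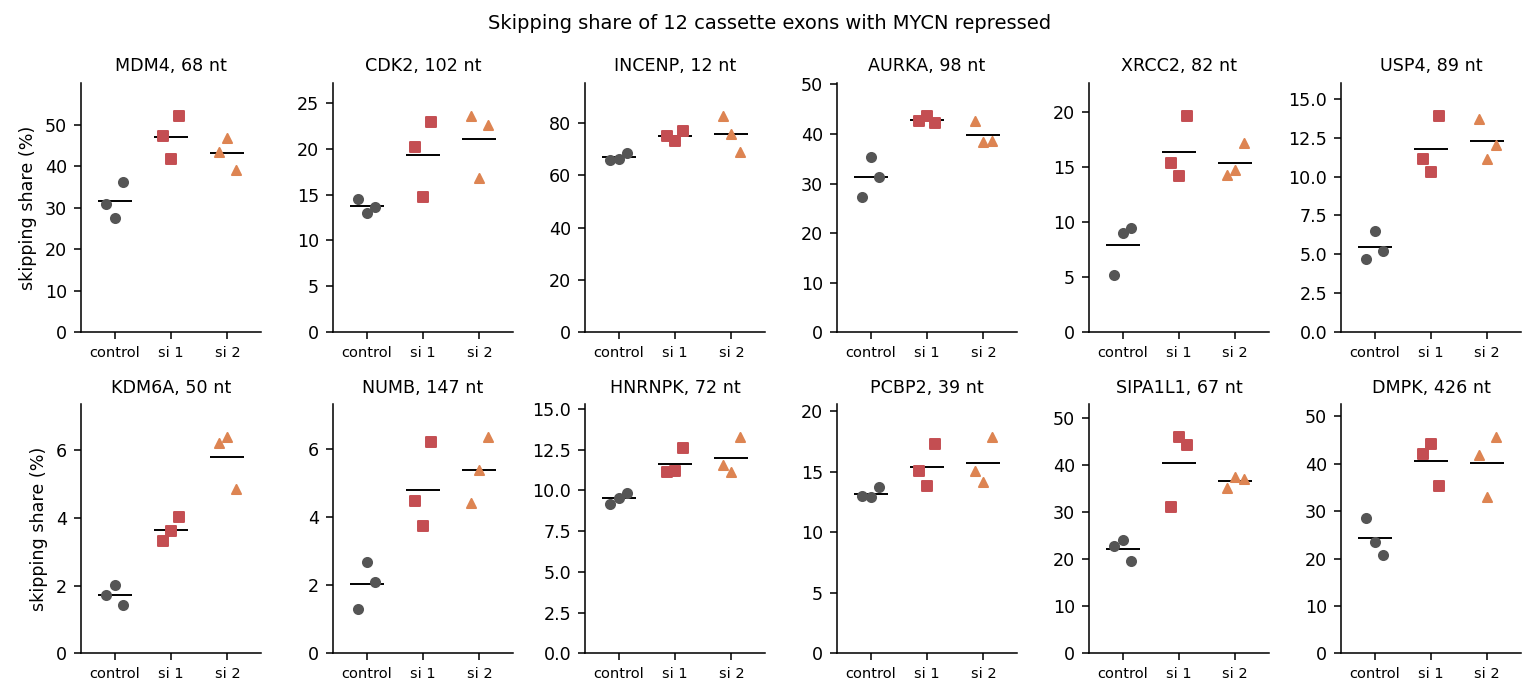
Skipping share (%, axes from 0) of 12 cassette exons in the 9 libraries with MYCN repressed, 1 point per library, with a line at the mean of each group of 3 (control siRNA, siSNRPD3 #1 and siSNRPD3 #2). In each exon the 6 knockdown points lie above the 3 control points, for example 39.1% to 52.2% against 27.6% to 36.2% in MDM4.

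In SIPA1L1, a GTPase activator of Rap proteins, a 67 nt exon was skipped in 22.9%, 24.1% and 19.8% of wildtype and in 31.1% to 46.1% after knockdown. In DMPK, the kinase of the myotonic dystrophy locus, a 426 nt exon was skipped in 28.5%, 23.5% and 20.8% against 32.9% to 45.7%. In RPGR, a protein of the primary cilium, the values were 55.0%, 48.6% and 57.6% against 66.6% to 75.6%. For ZNF227, a zinc finger gene, exon 3 was skipped in 18.2%, 19.3% and 19.4% against 27.6% to 32.1%. ANKRD10 had 22.5% ± 3.87 and 43.9% ± 7.36, AKAP13 79.7% ± 6.61 and 92.2% ± 1.46, FOCAD 4.87% ± 1.28 and 9.64% ± 1.54, and SEPTIN6 87.7% ± 1.62 and 94.8% ± 1.49 (SD, n = 3 and 6). ZNF517 also had a higher share, at 5.79%, 3.58% and 8.54% against 20.2% to 38.6%. Skipping was lower in PLPPR4, at 52.9%, 76.3% and 39.5% against 1.18% to 30.3%, and in NBPF12, at 41.4%, 64.9% and 64.4% against 1.02% to 41.3%. NBPF12 belongs to a family of near-identical copies, among which reads could be split. Adjusted limma p-values of the 16 genes ran from 0.164 to 0.645.

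The 4 called sets lay in SLC12A2-DT, CCHCR1 and C5, and their values were far apart between groups. In SLC12A2-DT, a noncoding transcript that starts beside SLC12A2, a 147 nt exon was skipped in 66.4%, 77.0% and 84.2% of wildtype and in 1.82% to 4.46% after knockdown (limma, adjusted p = 0.000574). A second called set of this transcript shares the skipping intron and gave 3.57% ± 0.73 (SD, n = 3) and 0.0345% ± 0.0048 (SD, n = 6). In CCHCR1, which codes for a coiled-coil protein, a 133 nt exon was skipped in 18.1%, 13.4% and 14% against 0.145% to 0.475% (adjusted p = 0.000206). In C5, a complement component, the skipping of exon 6 was 7.45%, 12.1% and 6.51% against 0.120% to 0.261% (adjusted p = 0.00148). In CCHCR1, C5 and the second set of SLC12A2-DT, every knockdown library lay under 1%. These sets therefore passed the filter on the mean share only through their wildtype libraries. Whether few reads lay behind these values was not tested, since reads are not given. In the cells that express MYCN the 147 nt exon of SLC12A2-DT and the exons of CCHCR1 and C5 had 33.1% ± 24.5, 4.42% ± 7.15 and 0.133% ± 0.033 (SD, n = 3) under siControl and 29.98% ± 31.5, 10.2% ± 12.2 and 1.61% ± 3.48 (SD, n = 6) after knockdown, in that order. The 4 sets were no longer called in a fit of all 18 libraries, with adjusted p from 0.522 to 0.574.
In order of p, the next genes without overlap were not called. FIRRE, a noncoding RNA of the X chromosome, had 81.9%, 36.0% and 28.7% against 0.442% to 3.61%. BNC2, CLCC1 and PPP1R13B were at most 0.106% in every wildtype library and reached up to 6.59%, 6.86% and 8.16% after knockdown. Their sets passed the filter on the mean share only through the knockdown libraries. MED16, a Mediator subunit, had 0.465%, 12.4% and 0.853% against 32.9% to 55.2%, and LINC00667 5.09%, 18.3% and 1.12% against 52.8% to 87.4%. Their adjusted limma p-values ran from 0.141 to 0.298.

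Genes of the splicing machinery were described by lists of symbols. In none of 10 lists was an intron or a cassette set called by limma, against 0.0642% of all introns and 0.0221% of all sets tested. These shares are so low that a list without a call says little about its genes. The counts at an unadjusted p under 0.05 are set against 4.72% of all introns tested. The counts of sets without overlap are set against 3.59% of all sets wholly higher and 0.63% wholly lower. Among the Sm and LSm proteins, which form the rings of the snRNPs, 4 of 142 introns had such a p, and among the factors of snRNP assembly 3 of 187. In SNRPG, the Sm protein G, the 23 nt exon 2 was skipped in 8.69%, 9.72% and 10.3% of wildtype and in 10.3% to 11.3% after knockdown, the only set without overlap of 16 in that list. Of the 31 sets of assembly factors, 1 lay wholly higher. In SNRPB, the Sm protein B that is known to adjust its own exon inclusion to Sm protein supply, the intron with the smallest p had a PSI of 99.2%, 98.7% and 98.7% against 98.3% to 98.9%, and in PRMT5 29.3%, 30.1% and 27.7% against 29.6% to 40.9%. The groups overlapped in both. LSM2 had an intron at 10.7%, 14.5% and 12.7% against 4.88% to 10.2%, without overlap. The groups overlapped in the other introns taken from both lists by p, in LSM6, SNRPA1, RIOK1 and SART3, while NCBP1, the large cap-binding subunit, had 97.4%, 97.3% and 96.5% against 97.7% to 98.3%.

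In core spliceosome genes, 39 of 492 introns (7.93%) had an unadjusted p under 0.05, and of 74 cassette sets 6 (8.11%, against 3.59% of all sets) lay wholly higher and 2 wholly lower (0.63% of all sets). LUC7L3, a U1-associated protein, had 2 exons with shares from 93.9% ± 0.647 in wildtype to 95.9% ± 0.817 and from 95.7% ± 0.345 to 96.7% ± 0.350 (SD, n = 3 and 6). In PRPF3 of the U4/U6 snRNP, PRPF38B and TIAL1, which helps U1 to bind, wildtype shares of 88.4% ± 0.601, 90.6% ± 1.36 and 91.7% ± 1.32 (SD, n = 3) stood against 91.8% ± 1.99, 94.0% ± 2.11 and 94.3% ± 0.865 (SD, n = 6). Skipping was lower for an exon of PRPF18, a factor of the second step, at 90.3%, 89.0% and 89.0% against 76.6% to 88.2%, and for one of SF3B3 of the U2 snRNP, at 96.2%, 95.8% and 96.4% against 90.5% to 95.6%. In SF1, which binds the branch point first, an annotated intron had 9.53%, 7.73% and 7.23% against 10.5% to 13.3%, again without overlap. An intron of TIAL1 had 3.26%, 3.92% and 3.30% against 1.60% to 3.14%.

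SR and hnRNP proteins are regulators that bind exons and introns, and their counts were not tested against each other. Of 35 sets in SR protein genes, 0 were without overlap, and 7 of 167 introns had an unadjusted limma p under 0.05. In SRSF3 and TRA2A, whose poison exons are known to limit their own level, the skipping shares overlapped between groups, at 98.0% ± 0.257 and 98.2% ± 0.157 for SRSF3 and 55.3% ± 3.29 and 62.4% ± 10.04 for TRA2A (SD, n = 3 and 6). Single introns lay apart in SRSF5, at 10.8%, 11% and 8.98% against 13.1% to 14.1%, and in SON, a protein of nuclear speckles, at 78.6%, 78.1% and 78.7% against 81.6% to 84.2%. For SRSF11 they overlapped. Of 44 sets in hnRNP genes, 7 (15.9%, against 3.59% of all sets) lay wholly higher and 1 lower (0.63% of all sets), and 6 of 240 introns had an unadjusted p under 0.05. In HNRNPK the 72 nt exon 8 was skipped in 9.16%, 9.51% and 9.87% of wildtype and in 11.1% to 13.3% after knockdown. In PCBP2, also a poly(C)-binding protein, the 39 nt exon 12 was skipped in 13%, 12.9% and 13.7% against 13.9% to 17.9%. Exons of HNRNPR, SYNCRIP and RALY had 2.65% ± 0.141, 9.83% ± 0.337 and 96.1% ± 0.349 (SD, n = 3) against 3.40% ± 0.263, 12.7% ± 1.87 and 96.7% ± 0.246 (SD, n = 6). An exon of HNRNPDL was the one wholly lower, at 2.16% ± 0.0283 against 1.60% ± 0.405. In HNRNPD, which binds AU-rich elements, the groups overlapped at 63.4% ± 3.00 and 66.1% ± 0.95 (SD, n = 3 and 6).

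Among the other lists, cell cycle genes had 11 of 120 sets (9.17%, against 3.59% of all sets) wholly higher and 3 lower (0.63% of all sets), with 30 of 845 introns at an unadjusted limma p under 0.05, and 77.5% of their sets had a higher fitted share against 63.9% of all sets. In SKP2, the F-box protein that marks p27 for degradation, an annotated intron had a PSI of 27.7%, 25.4% and 23.1% in wildtype and 29.9% to 46.1% after knockdown, and in cells that express MYCN its means were 31.8% and 45.7%. In BIRC5, the inhibitor of apoptosis survivin, an 816 nt exon outside the canonical transcript had a skipping share of 14.9%, 16.2% and 10.7% against 14% to 19.1%, with overlap. Its skipping intron also spans an exon of the canonical transcript. The PSI of that intron was 4.05% ± 0.889 and 5.21% ± 0.554 (SD, n = 3 and 6), with overlap, and its means were 3.78% and 5.88% with MYCN expressed. A 165 nt exon of the gene was among the 11, at 98.2%, 98.4% and 98.1% against 98.5% to 98.9%. Introns of CCNH and ANAPC16 had 1.57%, 0.472% and 1.33% against 2.27% to 2.93% and 2.30%, 2.85% and 2.47% against 3.38% to 4.19%. DNA damage genes had 4 of 266 sets (1.5%, against 3.59% of all sets) higher and 3 lower, and 56 of 1491 introns with such a p. In FANCC, of the Fanconi anaemia core complex, an intron had 2.81%, 5.28% and 4.97% against 8.71% to 18.7%, and in RAD18, a ubiquitin ligase of damage tolerance, one had 0.017%, 0.565% and 0.0156% against 1.01% to 2.05%. The intron with the smallest p of that list, in the repair nuclease ERCC4, was lower, at 3.49%, 7.52% and 2.29% against 0.018% to 1.12%, and an exon of RAD52 was skipped in 87.4%, 87.5% and 95.2% against 71.4% to 87.2%. Innate immune genes had 3 of 163 sets (1.84%) higher and 1 lower, and 36 of 777 introns. An intron of EIF2AK2, the RNA-activated kinase PKR, had 1.20%, 0.739% and 0.866% against 1.84% to 4.22%, while introns of TLR1 and NLRC5 were lower, at 3.32%, 4.19% and 4.73% against 0.0421% to 3.14% and at 47.5%, 50.3% and 46.9% against 36.9% to 43.3%. Their exons included exon 7 of IRF3, a transcription factor of interferon genes, skipped in 1.51%, 1.44% and 1.92% against 2.12% to 7.45%, one of STAT5B at 1.62%, 1.07% and 1.33% against 1.77% to 5.65%, and one of the interferon receptor IFNGR2 at 92.1%, 88.2% and 88.2% against 55.2% to 85.6%. The MYC network, which shares AURKA with the cell cycle list, had 3 of 53 sets (5.66%) higher, all in AURKA, and 1 lower, and 12 of 364 introns, and in HUWE1, a ubiquitin ligase, an intron had 39.3%, 35.9% and 37.9% against 44.6% to 53.0%. Factors of nonsense-mediated decay had 2 of 25 sets (8%) higher, and 9 of 234 introns. In DHX34 of that pathway the first intron had 87.9%, 91.6% and 89.7% against 80.5% to 87.6%.

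Single introns were also tested without regard to the kind of event. Limma called 96 of the 149546 introns, 0.0642% of those tested, of which 32 were higher and 64 lower after knockdown. This split varied with the setting, at 63 higher and 82 lower with an offset of 0.001, 65 and 89 with 3 group means, 197 and 188 with siSNRPD3 #1 alone, and 199 and 227 with siSNRPD3 #2 alone. The called introns lay in 67 genes, and 15 of them had no gene. The PSI values of a cluster have a fixed sum, so a called rise can be the mirror of a called fall. In CASTOR2, WWC3 and TLL2, for example, 1 called intron rose by as much as another fell. The 96 introns and their split by direction are therefore not counts of separate events. Both siRNAs moved each of the 96 the same way, against 66.1% of all introns tested. The call pools both siRNAs against the same 3 wildtype libraries, so this agreement follows largely from the call and is not separate support. Of the 96, 27 held a PSI exactly repeated between libraries, and the 69 others had 9 different values. In 88 of the 96, all libraries of 1 group lay under 1% or over 99%, against 4.99% of all introns tested, and 31.2% were annotated introns against 68.3%. Wholly higher and wholly lower introns made up 1.27% each of those tested.

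Away from the edges, 2 introns were called among the 69. PANK1 codes for a pantothenate kinase at the start of coenzyme A synthesis, and its first intron, chr10:89612049-89644599 on the minus strand, had a PSI of 53.3%, 62.4% and 54.0% in wildtype and 75.4% to 78.1% (median 76.7%) after knockdown. The rise of 1.30 ± 0.15 on the log2 odds scale (SE, limma, adjusted p = 0.031) stood beside means of 68.0% with siControl and 73.2% after knockdown in cells that express MYCN. DESI2, an isopeptidase, had an annotated intron, chr1:244654026-244686596, at 5.76%, 4.86% and 5.46% against 10.7% to 13.1% (limma, adjusted p = 0.0311), and at 8.34% and 10.4% with MYCN expressed. Both calls were lost when any of several libraries was left out. For PANK1 these were all libraries but wildtype library 2, with adjusted p up to 0.089 without wildtype library 1, and for DESI2 all but siSNRPD3 #1 library 3 and siSNRPD3 #2 library 1, with adjusted p up to 0.0984 without wildtype library 2.

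The other introns named, taken by the size of the change in mean PSI among called introns with 9 different values, had a whole group under 1% or over 99%. They therefore passed the filter on mean PSI only through the other group. In PNPLA3, a lipase of lipid droplets, the first intron, chr22:43924099-43926934, fell from 99.8%, 99.7% and 99.4% to between 57.0% and 81.5% (limma, adjusted p = 0.00356), and had 93.5% and 76.9% in cells that express MYCN. In C7orf57, the intron chr7:48049978-48052699 fell from 99.8% in each wildtype library to between 69.7% and 87.9%, and the intron that starts at the same base and ends at 48052747 took up the remainder, at 0.218%, 0.206% and 0.224% against 12.1% to 30.3% (adjusted p = 0.00333 for each). ABHD17C, a depalmitoylase, rose in its first intron from 94.0%, 91.8% and 93.2% to 99.9% in every knockdown library, and CASTOR2 from 95.4%, 91.1% and 92.4% to between 99.8% and 99.9%. From at most 0.344% in every wildtype library, PSI rose in CASC15 to between 9.96% and 17.4%, in HS6ST1 to between 7.07% and 25.3%, in SYNC to between 4.43% and 13%, in IFT140 to between 6.32% and 12.6%, in TESK2 to between 3.42% and 9.78%, in ZNF518A to between 2.91% and 6.35%, and in NBPF14, again of a family of near-identical copies, to between 11.2% and 36.0%. The introns of IFT140, TESK2, ZNF518A, HS6ST1 and NBPF14 are not in the annotation as such. To at most 0.659% in every knockdown library, PSI fell in MFSD6 from 20.5%, 24.7% and 13.4%, in LPAR1, a receptor for lysophosphatidic acid, from 24.6%, 14.5% and 10.1%, in RRH from 19.9%, 19.5% and 10.7%, in CCDC157 from 6.61%, 15.6% and 17.5%, and in BRINP3-DT from 32.4%, 24.5% and 19.7%. In ENSG00000291215 it fell from 99.7%, 99.6% and 99.7% to between 61.7% and 86.9%, and in NBPF14 an annotated intron fell from 99.5%, 99.4% and 99.6% to between 63.6% and 87.1%. All of these calls passed a limma adjusted p of 0.05 in the fit of the 9 libraries. Of the 24 named introns that were called, 19 lost the call in the fit of all 18 libraries (adjusted p from 0.0801 to 0.811, for example 0.340 in PNPLA3 and 0.280 in C7orf57). The introns that rose in NBPF14, SYNC and TESK2 also lost their calls without any 1 of the 3 wildtype libraries (adjusted p from 0.0535 to 0.068). Whether libraries at an edge had few reads there was not tested, since reads are not given.

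The direction of the called introns was also counted in the cells that express MYCN. Of the 64 that were lower with MYCN repressed, 29 also had a lower mean after knockdown with MYCN expressed. Of the 32 that were higher, 19 also had a higher mean, where 49.7% of all introns tested were higher. Whether these counts depart from the share of all introns was not tested, so they are no evidence of a shared direction. The difference between the knockdown effects in the 2 MYCN states, an interaction term of limma over all 18 libraries, was called for 25 introns, 9 of them among the 96. Only introns that passed the filter on mean PSI over the 9 Dox libraries were tested for it, so introns raised only in cells that express MYCN were left out. For cassette sets the interaction term was called for 0 of 18092 by limma. At an unadjusted p under 0.05 there were 744 of these sets, against 1196 for the knockdown effect with MYCN repressed.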

How the data were processed

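The authors aligned stranded, paired-end mRNA reads of SHEP.tet21n cells to hg38 with STAR (2.5.0a, with SAMtools 1.3.1, per the submitters' processing notes), and counted and clustered introns with leafcutter. The deposited PSI values are fractions per intron, cluster and library, smoothed so that none is 0 or 1, without the read counts behind them. No interval or depth could therefore be given. The authors' second table, which holds p-values, FDR and delta PSI of their pairwise comparisons, was not used. All 18 columns matched a library by its label, and 0 were left unmatched.

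Annotation came from GENCODE release 44 (hg38), a later release than that of the study. A fraction x (PSI or skipping share) with a mean from 0.01 to 0.99 over the 9 libraries was taken as log2((x + 0.01)/(1 - x + 0.01)) and fitted with limma 3.58.1 in R 4.3.3 (lmFit, eBayes), 6 against 3 libraries, with Benjamini-Hochberg adjustment over all introns or all sets and a threshold of 0.05. For measures that give a single value in each library, an exact permutation test (two-sided, 84 assignments) was run in Python 3.11.15. The fit was tested on simulated data.

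The introns named are the 12 largest rises and 12 largest falls among those called with 9 different values, 1 sign for both siRNAs and no overlap. Cassette sets were taken by the same conditions (10, filled in order of p), with the 3 genes of smallest intron p in each list and 9 genes that the study or the Sm pathway brings up. List sets without overlap, and sets with every library from 1% to 99%, were added after seeing the data. Members and lists were chosen with earlier results of these data known. Of 10 marker genes of neuroblastoma cell states, 6 had introns in the table (GATA3, HAND2, PRRX1, YAP1, FOSL1 and CD44), which says nothing of their level. Correlations of libraries within a group ran from 0.848 to 0.865 and between groups from 0.846 to 0.871.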

Additional observations from a re-analysis of the deposited data

Results flagged for a closer look

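The knockdown effect differed between the MYCN states, by the interaction term of limma over all 18 libraries, in 25 of the 149546 introns tested. Of these 149546, 5903 had an unadjusted p under 0.05, fewer than the 7059 (4.72%) with such a p for the knockdown effect with MYCN repressed. Of the introns named in the text, 3 were among the 25. In CPB2-AS1 the effect in MYCN-expressing cells exceeded that in MYCN-repressed cells by 4.73 log2 odds (adjusted p = 0.0297). In ENSG00000231563 the difference was 4.01 log2 odds (adjusted p = 0.0053), and in LCA5L 4.10 log2 odds (adjusted p = 2.67e-06). In all 3, the wildtype libraries were the only group with a raised PSI. These introns thus passed the filter only through the wildtype libraries, which are also the baseline of the knockdown effect with MYCN repressed. Their interaction terms are therefore no separate support for an effect that depends on MYCN. CPB2-AS1 had 42.5%, 32.5% and 7.94% in wildtype, 0.128% to 0.496% after knockdown with MYCN repressed, and means of 0.151% and 0.168% in the cells that express MYCN. Its knockdown effect with MYCN repressed was no longer called without any 1 library other than wildtype library 3 (adjusted p from 0.062 to 0.136). ENSG00000231563 had 7.26%, 16.5% and 28.1% in wildtype, 0.0723% to 0.191% after knockdown, and 0.189% and 0.113% with MYCN expressed. LCA5L had 12.7%, 21.8% and 16.3% in wildtype, 0.148% to 0.272% after knockdown, and 0.241% and 0.21% with MYCN expressed. The groups hold 3 libraries each, so single libraries that stand apart were not tested for.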

How the results depend on the processing

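The rise of the mean skipping share kept its direction and its side of the threshold under each alternative run that can reach it, with 0.956 to 1.17 percentage points when each library was left out in turn. With 1 siRNA alone, where p cannot go below 0.1, it was 1.18 points for siSNRPD3 #1 and 0.965 for siSNRPD3 #2. The count of called introns, 96, depended on the setting. It was 154 with 3 group means, 31 with all 18 libraries in the fit (15 of them shared), 145 with an offset of 0.001, 15 on the untransformed scale, 37 with a mean PSI from 0.05 to 0.95, 145 with no filter, 385 with siSNRPD3 #1 alone and 426 with siSNRPD3 #2 alone. Leaving out each library in turn gave 145 to 267. The 4 called cassette sets became 0 with all 18 libraries, where 1201 had an unadjusted p under 0.05 by limma, 8 with an offset of 0.001, 2 on the untransformed scale, 2 with a mean share from 0.05 to 0.95, 23 with siSNRPD3 #1 alone and 22 with siSNRPD3 #2 alone, and 7 to 13 without a library each. The cause of these shifts was not tested. The 2 kinds of unannotated intron that passed became 1 over introns with 9 different values, 0 with a mean PSI from 0.05 to 0.95, and 0 to 2 without a library each. The 16 tests by class of exon that passed became 0 to 16, with 0 where a wildtype library was left out, where too few of the 24 tests reached the smallest p to pass after adjustment. No measure of alternative splice sites passed in any setting.

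Replicate numbers were weakly shared between groups: deviations of libraries with the same number correlated by 0.0062 to 0.0639. The mean was 0.0324, against -0.0162 for libraries with different numbers. At an unadjusted limma p under 0.05 there were 8236 introns and 1372 cassette sets with the replicate number as a block, against 7059 and 1196 without it. With the replicate number as a block, 83 introns, 4 cassette sets and 17 introns of different effect by MYCN state were called, and by permutation within replicate numbers, whose smallest p is 0.037, 0 class tests and 0 kinds of unannotated intron passed after adjustment. For the 28 named introns and sets called here the sign held in all alternatives, but of the 24 introns 10 lost the call with the block (adjusted p from 0.0525 to 0.166), 19 with all 18 libraries, 22 on the untransformed scale, and 2 to 6 without a library each. How far depth limits these values is unknown, since reads are not given.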
